A study of Arabidopsis thaliana with 8 samples.

Results

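Of 22746 probe sets on arrays of Arabidopsis thaliana leaf RNA, 195 (0.857%) were high in unsalted Col wild-type plants and lower in every other group of the study. The members were chosen from the measured values: on both Col arrays without salt, the log2 intensity lay more than 1 log2 unit above the highest of the other 6 arrays. This rule was met by 203 probe sets. Of these, 8 were left out by name, namely TINY2, GIS, UF3GT, UGT78D2, EXPA4, EXPA8, AT4G14090 and AT5MAT, which belong to flavonoid, expansin and other gene groups not described here. Because the rule compared unsalted Col with everything else, the height of the members in unsalted Col is a description and was not tested.

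The study used 8 Affymetrix arrays, 2 for each of 4 groups. Col 0 mM and Col 100 mM were wild-type plants watered without NaCl or with NaCl raised to 100 mM. M6PR 0 mM and M6PR 100 mM were transgenic plants, given the same watering, that carry mannose-6-phosphate reductase of celery and are described by the study as making mannitol and tolerating salt. NaCl began 14 days after sowing and was raised by 50 mM every 2 days. The daily light period was 10 h and the night 14 h. Leaves were harvested at an age of 20 days, when salt had been given for 6 days. Each array held RNA pooled from at least 15 seedlings of a replicate pot, so p-values measure the spread between pots, and the number of arrays limits the precision. The promoter of the transgene and the number of independent lines were not given in the sources used here, and no probe set for the transgene was analysed here. For the M6PR samples the free-text description gives Ws as the accession, whereas the wild type was Col, so transgene and accession may not be separable. The Col arrays also belong to another series. No array batch is given in the sample labels used here, so line and array batch may not be separable.

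Salt in the soil limits water uptake and loads leaves with sodium and chloride, and leaves of salt-sensitive plants such as Arabidopsis respond by slowing cell expansion and changing hormone, sugar and secondary metabolism. Expansion depends on proteins that loosen and remodel the cell wall, on auxin, and on light signals. Mannitol is a sugar alcohol that celery stores and that can act as a compatible solute.

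The array of M6PR 100 mM replicate 1 stood apart from its group. Across all probe sets its correlation with M6PR 0 mM replicate 1 (r = 0.983) was as high as that with its own replicate (r = 0.982), and after each other the 2 Col 0 mM arrays correlated best with it (r = 0.981 for both). M6PR 100 mM replicate 2 and Col 100 mM replicate 2 correlated best with each other (r = 0.991). Col 100 mM replicate 1 also stood apart, since its highest correlation, with Col 100 mM replicate 2, was r = 0.984. These coefficients are descriptions across probe sets of shared samples. PYK10, a root gene that was high on the other 3 salted arrays, was at background on M6PR 100 mM replicate 1. The cause of these values was not tested, and neither was the salt label of this array. The label is held in doubt here, which bears on every M6PR 100 mM value. Median differences that hold M6PR 100 mM, and the order of the groups, are therefore given with and without each of its arrays. Counts of members above or below other groups are also given for each of its arrays alone. Single-gene differences and unadjusted counts that hold M6PR 100 mM use both of its arrays, so this doubt applies to them. Counts without both M6PR 100 mM replicate 1 and Col 100 mM replicate 1 are given at the end. They cover the number of members and the comparisons that hold M6PR 100 mM.

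Of the members, 106 had 1 gene in the array annotation (105 genes, since AT5G54130 was on 2 probe sets), 2 had several and 87 had none (44.6%, against 38.4% of all probe sets). The unnamed members could not be checked against the names left out. Among the named members, 19 had a gene symbol and 87 only a locus name. The members with 1 gene lay on all 5 chromosomes, at 0.682% to 0.931% of the matched probe sets of each, and 0 of 69 matched plastid probe sets was a member. Neighbouring members with 1 gene between them were AT1G64380 with GH9C2, and AT4G32270 with IAA29.

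The median member had a log2 intensity of 6.88 and 6.83 on the Col 0 mM arrays. It was 4.28 and 4.46 on the Col 100 mM arrays, 4.30 and 3.90 on the M6PR 0 mM arrays, and 5.05 and 4.19 on the M6PR 100 mM arrays. M6PR 100 mM replicate 1 was thus the closest to unsalted Col, as the map of all members shows. In means of 2 arrays the median member was 2.37 log2 units higher in Col 0 mM than in Col 100 mM, 2.54 higher than in M6PR 0 mM and 2.12 higher than in M6PR 100 mM. In bulk leaf RNA, fewer cells of a type and less RNA per cell cannot be told apart.

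**Figure D1:**
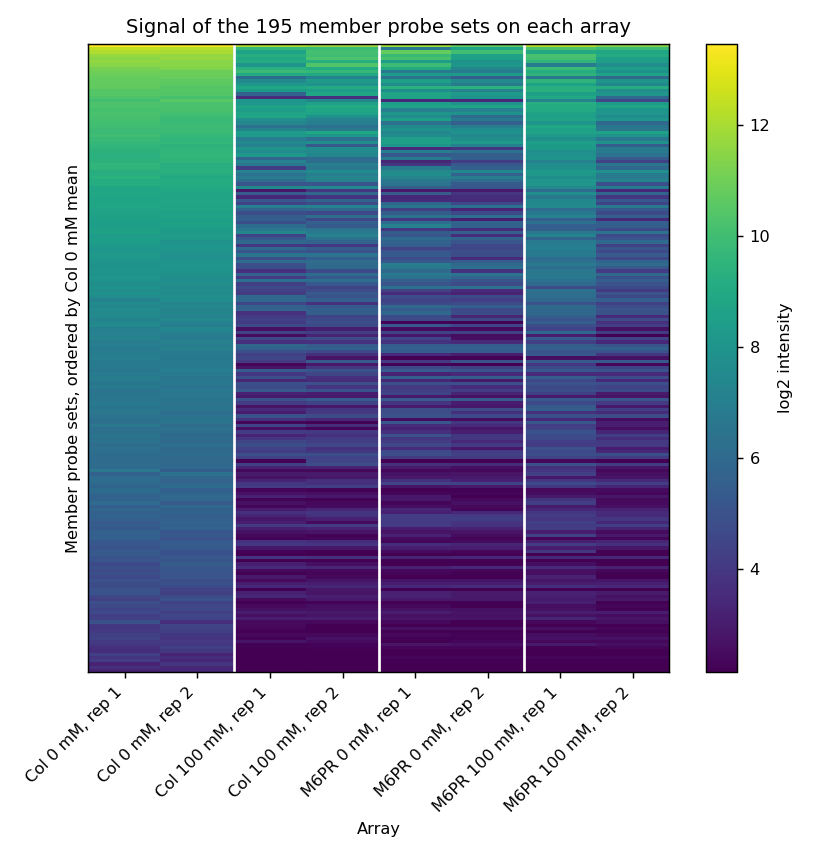
Log2 intensity (colour) of the 195 member probe sets (rows, ordered by their Col 0 mM mean) on each of the 8 arrays (columns; white lines separate the groups). The first 2 columns are brightest by the rule, and the M6PR 100 mM replicate 1 column is brighter than that of replicate 2, with medians of 5.05 and 4.19.

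The levels of the members covered most of the range of the arrays. Their Col 0 mM means ran from 3.35 to 13.34 on the log2 scale, with 68 above 8 and 23 above 10. The 2 Col 0 mM arrays lay within 0.5 of each other for 174 members. The root mean square SD of the members was 0.225 in Col 0 mM, 0.476 in Col 100 mM, 0.467 in M6PR 0 mM and 0.836 in M6PR 100 mM. Over all probe sets these values were 0.172, 0.404, 0.248 and 0.426. The M6PR 100 mM pair thus differed most in the members and also over all probe sets.

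Some members were at background outside unsalted Col, which was not particular to the members. The values have a shared lowest level of 2.15, reached by 27.9% to 29.2% of the probe sets of each array, and log2 4 was taken as the background level. For 57 members (29.2%) all 6 other arrays lay below it, and for 6 of the members all 6 lay within 0.01 of the lowest level. An array outside unsalted Col reached background for the other 138 members, and for 13747 of all 22746 probe sets. The shares given for each array count the lowest level only, so they are a different measure. The other groups' means were all at or above background for 89 members. Where a dimmer group lay below background, a fold is given as at least the fold over that level. For 9 members even Col 0 mM lay below it, and no fold is given.

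The gap between the lower Col 0 mM array and the highest other array ran from 1.0 to 3.64 log2 units, with a median of 1.36. It exceeded 2 for 36 members and 3 for 5. Just inside the threshold lay AT1G28570 (1.0016), AT2G41250 (1.0068) and CYP71B36 (1.0154). Just outside lay AT1G51340 (0.9999), AT1G65870 (0.9791) and HOS3-1 (0.9776). The threshold thus cuts a continuous range of gaps.

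Counted with the same gap and no names left out, 203 probe sets set Col 0 mM above all other arrays and 318 set it below. Col 100 mM had 225 above and 46 below, and M6PR 0 mM had 163 and 56. M6PR 100 mM had 3 above and 0 below.

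**Figure D2:**
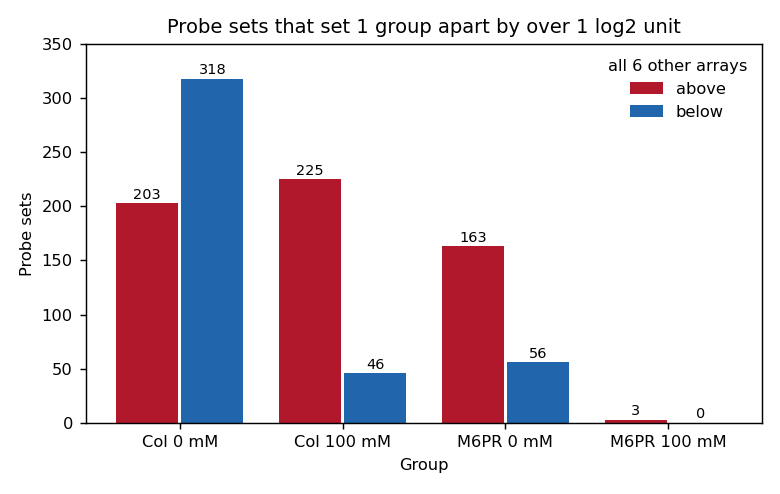
Number of probe sets (vertical axis) for which both arrays of a group (horizontal axis) lie more than 1 log2 unit above (red) or below (blue) all 6 other arrays, before any gene was left out by name. Col 0 mM has 203 above and 318 below, while M6PR 100 mM has 3 and 0.

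Among regulators, 4 transcription-related genes with a symbol were members. HYH encodes a bZIP factor of light signalling related to HY5. Its log2 intensities were 6.64 and 6.14 in Col 0 mM, 4.41 and 3.61 in Col 100 mM, 3.61 and 3.48 in M6PR 0 mM, and 4.23 and 3.12 in M6PR 100 mM. Outside unsalted Col all values lay near background, and Col 0 mM was 5.19-fold above Col 100 mM and at least 5.23-fold above both M6PR groups. MYC4, a bHLH factor of the jasmonate response, read 7.70 and 7.71 in Col 0 mM, 5.92 and 4.98 in Col 100 mM, 4.86 and 4.68 in M6PR 0 mM, and 6.20 and 4.60 in M6PR 100 mM. The M6PR 100 mM arrays spanned those of Col 100 mM and M6PR 0 mM. The fold of Col 0 mM was 4.76 over Col 100 mM, 7.61 over M6PR 0 mM and 4.93 over M6PR 100 mM.

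The gene bHLH34, for another bHLH factor, had 7.21 and 7.70 in Col 0 mM, 5.95 and 5.51 in Col 100 mM, 4.46 and 4.19 in M6PR 0 mM, and 5.94 and 5.55 in M6PR 100 mM. Both salted groups lay at the same level, above unsalted M6PR without overlap. Col 0 mM was 3.32-fold above Col 100 mM, 8.77-fold above M6PR 0 mM and 3.29-fold above M6PR 100 mM. IAA29 encodes an Aux/IAA repressor of auxin response. It read 4.11 and 3.31 in Col 0 mM and 2.15, the lowest level, on all other arrays, so its height rests on a signal at background.

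Enzymes that attach sugars to small molecules made up a second group. IAGLU, whose symbol stands for indole-3-acetate glucosyltransferase, an enzyme that conjugates auxin, had 7.91 and 7.56 in Col 0 mM, 4.18 and 5.29 in Col 100 mM, 3.52 and 3.28 in M6PR 0 mM, and 6.22 and 5.03 in M6PR 100 mM. Unsalted M6PR was the lowest and was at background, below both salted groups without overlap. Col 0 mM was 8.0-fold above Col 100 mM, at least 13.3-fold above M6PR 0 mM and 4.32-fold above M6PR 100 mM.

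UGT71B1, a UDP-glycosyltransferase, had 8.20 and 7.88 in Col 0 mM, 6.50 and 6.45 in Col 100 mM, 5.34 and 4.72 in M6PR 0 mM, and 6.86 and 5.40 in M6PR 100 mM. Its lowest values were again in unsalted M6PR, where Col 0 mM was 8.06-fold higher. UGT72B3, of the same family, read 5.65 and 5.18 in Col 0 mM and between 2.52 and 3.0 on the other arrays. UGT84A4, of a subfamily that glucosylates hydroxycinnamic acids, read 4.73 and 5.01 in Col 0 mM and between 3.01 and 3.11 elsewhere. For both of these, all other arrays were at background, and Col 0 mM was at least 2.67-fold and 1.83-fold above that level.

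CHIL, a chalcone isomerase-like protein of the flavonoid pathway, was among the brightest members with a symbol. It had 10.18 and 9.94 in Col 0 mM, 8.77 and 7.92 in Col 100 mM, 7.61 and 6.10 in M6PR 0 mM, and 8.53 and 7.63 in M6PR 100 mM. The unsalted M6PR arrays were the lowest but differed by over 1 log2 unit from each other. GSTU23, a tau-class glutathione transferase, had 5.41 and 5.73 in Col 0 mM, 3.08 and 2.48 in Col 100 mM, 4.06 and 3.90 in M6PR 0 mM, and 4.31 and 3.44 in M6PR 100 mM. CYP71B36, a cytochrome P450, had 6.52 and 5.99 in Col 0 mM, 3.28 and 3.69 in Col 100 mM, 4.97 and 3.98 in M6PR 0 mM, and 4.69 and 4.24 in M6PR 100 mM. Both of these had their lowest values in salted Col, unlike the glycosyltransferases above background.

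Of the cell wall genes, EXPB1 encodes a beta-expansin, a protein that loosens the wall. It had 9.15 and 9.16 in Col 0 mM, 6.18 and 7.08 in Col 100 mM, 6.70 and 6.20 in M6PR 0 mM, and 8.03 and 7.21 in M6PR 100 mM. After unsalted Col, salted M6PR was highest, without overlap with the other groups, and Col 0 mM was 5.77-fold, 6.53-fold and 2.90-fold above Col 100 mM, M6PR 0 mM and M6PR 100 mM. GH9B8 and GH9C2 encode glycosyl hydrolases of family 9, the endoglucanase family. GH9B8 had 8.46 and 7.97 in Col 0 mM, 5.91 and 5.74 in Col 100 mM, 5.74 and 5.14 in M6PR 0 mM, and 6.86 and 6.01 in M6PR 100 mM. GH9C2 was the brightest member with a symbol, at 11.04 and 10.92 in Col 0 mM, 9.87 and 9.68 in Col 100 mM, 6.80 and 6.84 in M6PR 0 mM, and 9.16 and 7.95 in M6PR 100 mM. Its groups formed 4 levels without overlap, with unsalted M6PR lowest. Col 0 mM was 2.30-fold above Col 100 mM but 17.9-fold above M6PR 0 mM and 5.36-fold above M6PR 100 mM.

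Transporters and primary metabolism were represented by 4 genes. SWEET1, a sugar transporter, had 8.79 and 8.77 in Col 0 mM, 6.97 and 7.15 in Col 100 mM, 6.54 and 6.26 in M6PR 0 mM, and 7.48 and 6.74 in M6PR 100 mM. OCT5, of the organic cation and carnitine transporters, had 6.18 and 5.98 in Col 0 mM, 4.28 and 4.81 in Col 100 mM, 3.67 and 3.62 in M6PR 0 mM, and 4.89 and 4.12 in M6PR 100 mM. For both transporters unsalted M6PR was below both salted groups without overlap. APS4, an ATP sulfurylase of sulfate assimilation, had 9.67 and 9.63 in Col 0 mM, 7.44 and 7.70 in Col 100 mM, 8.55 and 8.27 in M6PR 0 mM, and 8.47 and 7.89 in M6PR 100 mM. QQS, a gene restricted to Arabidopsis and known for its effect on leaf starch, had 7.97 and 8.0 in Col 0 mM, 4.87 and 6.05 in Col 100 mM, 6.73 and 6.30 in M6PR 0 mM, and 6.24 and 5.29 in M6PR 100 mM. These last genes showed the other order, with salted Col below unsalted M6PR without overlap. TRM24, named for a motif that recruits the TON1 protein of the cytoskeleton, read 3.97 and 4.49 in Col 0 mM and at most 2.44 elsewhere, at background.

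**Figure D3:**
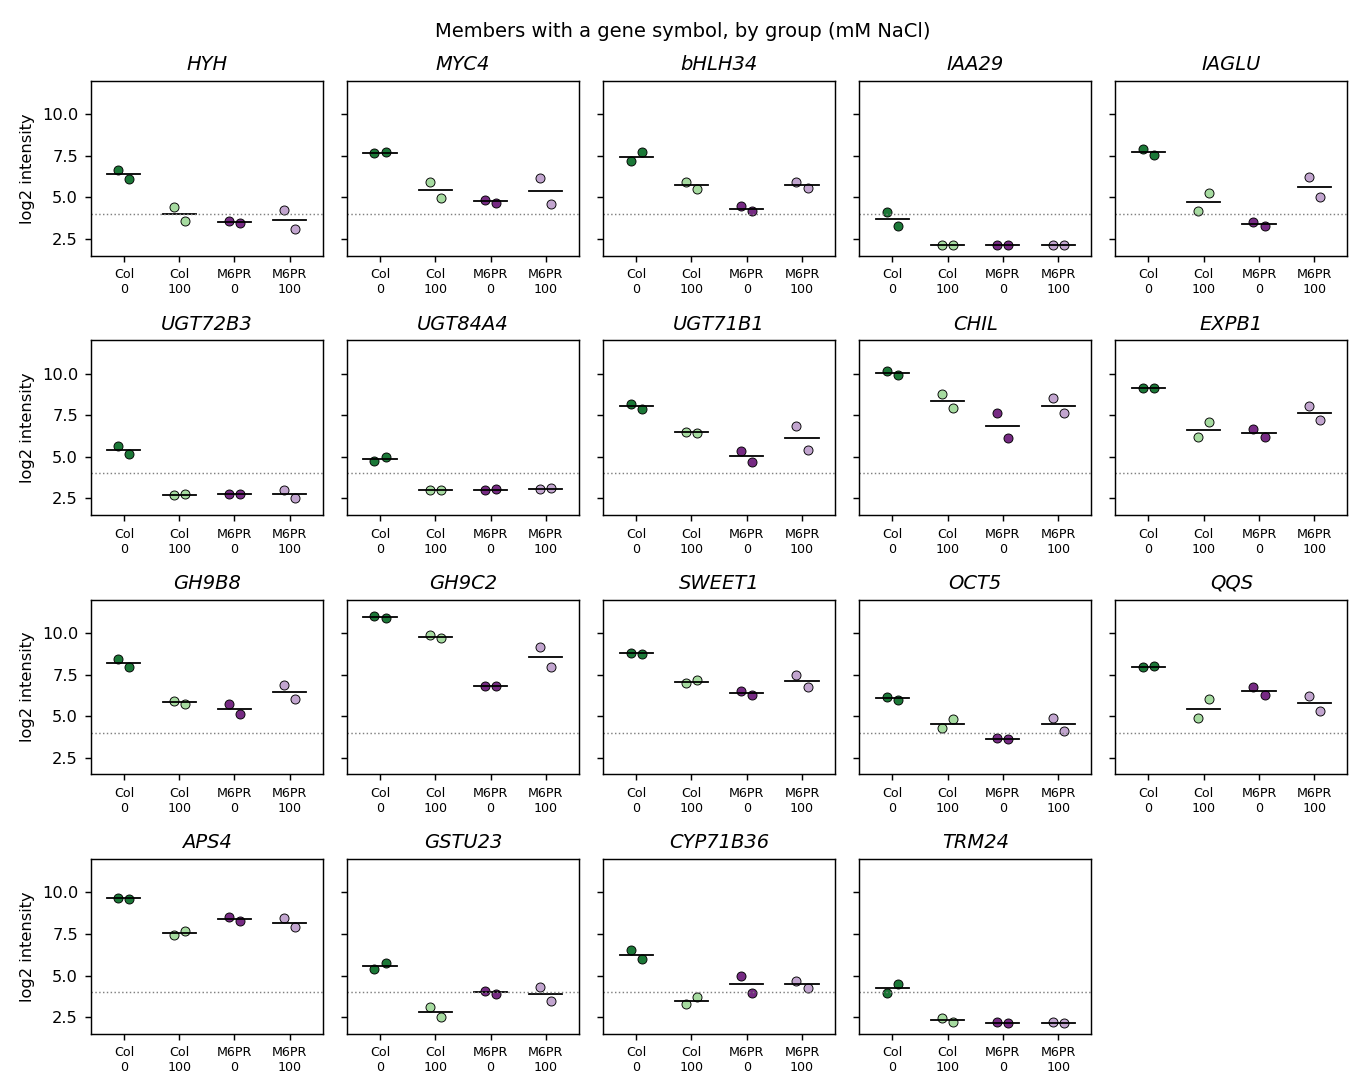
Log2 intensity (vertical axis) of the 19 members with a gene symbol in the 4 groups (horizontal axis, mM NaCl). Points are arrays, short lines are means of 2 arrays, and the dotted line is the background level of log2 4. Unsalted M6PR is lowest for GH9C2, IAGLU and bHLH34. Salted Col has the lowest mean for APS4, QQS and GSTU23, with the salted groups overlapping for QQS.

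Of the 20 genes with the largest gaps, 19 are known here only by their locus name. AT1G20070 had the largest gap of any member with a gene. It read 10.77 and 10.84 in Col 0 mM, 6.15 and 7.19 in Col 100 mM, 6.51 and 5.56 in M6PR 0 mM, and 6.61 and 6.07 in M6PR 100 mM, which overlapped among the other groups. Col 0 mM was 17.6-fold above Col 100 mM, 27.3-fold above M6PR 0 mM and 22.1-fold above M6PR 100 mM. AT2G44940 had 8.55 and 8.52 in Col 0 mM, 5.51 and 4.61 in Col 100 mM, 3.92 and 3.02 in M6PR 0 mM, and 5.53 and 3.47 in M6PR 100 mM. Its M6PR 100 mM arrays lay on either side of the Col 100 mM arrays.

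AT1G48100 had 8.68 and 8.74 in Col 0 mM, 5.76 and 5.98 in Col 100 mM, 4.30 and 3.24 in M6PR 0 mM, and 6.09 and 5.27 in M6PR 100 mM. AT2G40230 had 7.58 and 7.31 in Col 0 mM, 4.56 and 3.77 in Col 100 mM, 4.60 and 4.75 in M6PR 0 mM, and 4.97 and 4.30 in M6PR 100 mM. The first was lowest in unsalted M6PR, and in the second the M6PR 100 mM arrays overlapped with both other groups, while both M6PR 0 mM arrays lay above both Col 100 mM arrays. Of the 20 genes with the largest gaps, 13 were below background on average in all other groups, UGT72B3 among them. AT5G66740 and AT3G15310 read 5.19 and 5.08, and 5.32 and 5.0, in Col 0 mM and 2.15 on each other array. The same held near background for AT5G11460, which read 6.17 and 5.86 in Col 0 mM and between 2.66 and 2.95 elsewhere.

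Among the 138 members with at least 1 other array at or above background, M6PR 100 mM replicate 1 was the highest of the 6 arrays for 84 (60.9%), against 18.8% of 13713 such probe sets. Probe sets with a tie for the highest array were left out of the 13713. M6PR 100 mM replicate 2 was highest for 2 (1.45%, against 6.29%). Col 100 mM replicate 1 was highest for 20 (14.5%, against 32.9%), and M6PR 0 mM replicate 1 for 20 (14.5%, against 17.8%). The member values of 1 salted M6PR array thus set the gap of most measured members.

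**Figure D4:**
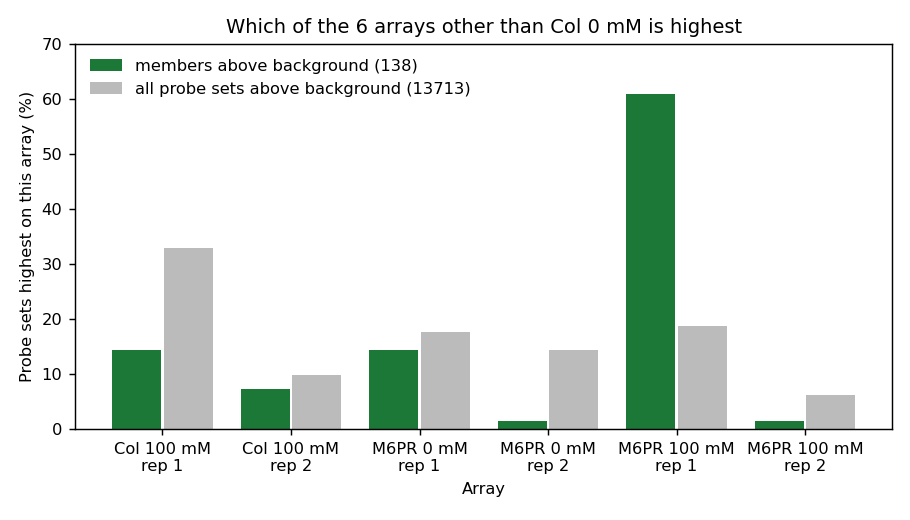
Share of probe sets (percent, vertical axis) for which each of the 6 arrays other than Col 0 mM (horizontal axis) is the highest, for the 138 members above background (green) and all 13713 probe sets above background (grey). M6PR 100 mM replicate 1 is highest for 60.9% of these members and 18.8% of all.

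The lead of that array was large for some genes. It exceeded the other 5 arrays by more than 1 log2 unit for 25 members (12.8%), against 1.13% of all probe sets. Each Col 100 mM array did so for 1 member (0.513%), against 2.13% of all probe sets for replicate 1 and 0.607% for replicate 2. M6PR 0 mM replicates 1 and 2 and M6PR 100 mM replicate 2 did so for no member. Over all probe sets their shares were 0.233%, 0.114% and 0.0352%. AT2G27420 read 8.85 and 8.75 in Col 0 mM, 3.43 and 3.85 in Col 100 mM, 3.41 and 3.62 in M6PR 0 mM, and 6.73 and 3.94 in M6PR 100 mM. AT2G15020 read 8.80 and 8.90 in Col 0 mM, 2.86 and 3.95 in Col 100 mM, 2.92 on both M6PR 0 mM arrays, and 6.17 and 3.39 in M6PR 100 mM. Both genes were below background on each of the 6 arrays but M6PR 100 mM replicate 1.

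AT1G11700 read 6.54 and 6.51 in Col 0 mM, 5.36 on M6PR 100 mM replicate 1 and at most 2.97 on the other 5 arrays. AT5G54130 read 8.80 and 8.75 in Col 0 mM, 4.40 and 4.72 in Col 100 mM, 5.86 and 4.64 in M6PR 0 mM, and 7.41 and 4.40 in M6PR 100 mM, and its second probe set had the same order, with 8.05 and 4.93 in M6PR 100 mM. The M6PR 100 mM mean of such genes describes neither of its arrays.

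Of 3 comparisons that hold no Col 0 mM array, the rule did not fix the direction, and these were tested with limma on all probe sets. The first asks how salt changed the members in M6PR (M6PR 100 mM minus M6PR 0 mM). With an adjusted p under 0.05, 0 of the 195 members were called, against 0.171% of all probe sets (39). With an unadjusted p under 0.05, 23 members (11.8%) were higher and 3 (1.54%) lower, against 3.86% and 6.71% of all. The median difference of the members was 0.31 log2 units, and that of all probe sets was 0. Both salted arrays lay above both unsalted arrays for 58 members (29.7%), against 12.7% of all, and below for 10 (5.13%), against 15.7%. Among the 138 members above background these shares were 33.3% and 5.80%, against 19.3% and 24.1% of 13747 such probe sets. The cumulative plot of the differences shows most members on the higher side.

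This shift depended on 1 salted M6PR array. M6PR 100 mM replicate 1 alone lay above both M6PR 0 mM arrays for 144 members (73.8%), against 25.7% of all, and below both for 12 (6.15%), against 28.4%. Replicate 2 lay above both for 59 (30.3%), against 28.4%, and below both for 64 (32.8%), against 25.6%. The median difference was 0 without replicate 1 and 0.66 without replicate 2. Over all probe sets the median difference was 0 in both settings. In each, the lone salted array is assumed to vary like the other groups.

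Among members with exactly 1 gene, the largest differences upward in M6PR were those of AT1G60590, AT5G01790 and IAGLU, and none passed the threshold. The unsalted M6PR means of AT1G60590, IAGLU and AT1G48100 lay below background, so their differences are not measured sizes. AT1G60590 read 9.51 and 9.55 in Col 0 mM, 8.0 and 7.58 in Col 100 mM, 3.52 and 3.98 in M6PR 0 mM, and 8.32 and 6.79 in M6PR 100 mM. It was at background in unsalted M6PR only, and the limma difference with salt was 3.81 (SE 0.55, adjusted p = 0.121). AT5G01790 read 9.59 and 9.29 in Col 0 mM, 6.71 and 7.09 in Col 100 mM, 3.97 and 5.20 in M6PR 0 mM, and 7.69 and 6.50 in M6PR 100 mM, with a difference of 2.51 (SE 0.60, adjusted p = 0.254). For IAGLU the difference was 2.22 (SE 0.57, adjusted p = 0.276), for AT3G22550 it was 2.17 (SE 0.80, adjusted p = 0.461) and for AT1G48100 it was 1.91 (SE 0.46, adjusted p = 0.254). Both salted arrays were above both unsalted arrays for each of these genes. For AT3G22550, M6PR 100 mM replicate 1 exceeded the other 5 arrays outside Col 0 mM by 1.85 log2 units.

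GH9C2 and bHLH34 had differences of 1.74 (SE 0.41, adjusted p = 0.253) and 1.42 (SE 0.27, adjusted p = 0.187) with salt in M6PR, again without overlap. The largest differences downward among members with exactly 1 gene were those of AT3G44970, at -0.88 (SE 0.50, adjusted p = 0.759), and QQS, at -0.75 (SE 0.53, adjusted p = 0.770). AT3G44970 read 9.76 and 9.57 in Col 0 mM, 6.98 and 6.29 in Col 100 mM, 8.45 and 7.73 in M6PR 0 mM, and 7.76 and 6.68 in M6PR 100 mM, so that its M6PR groups overlapped.

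**Figure D5:**
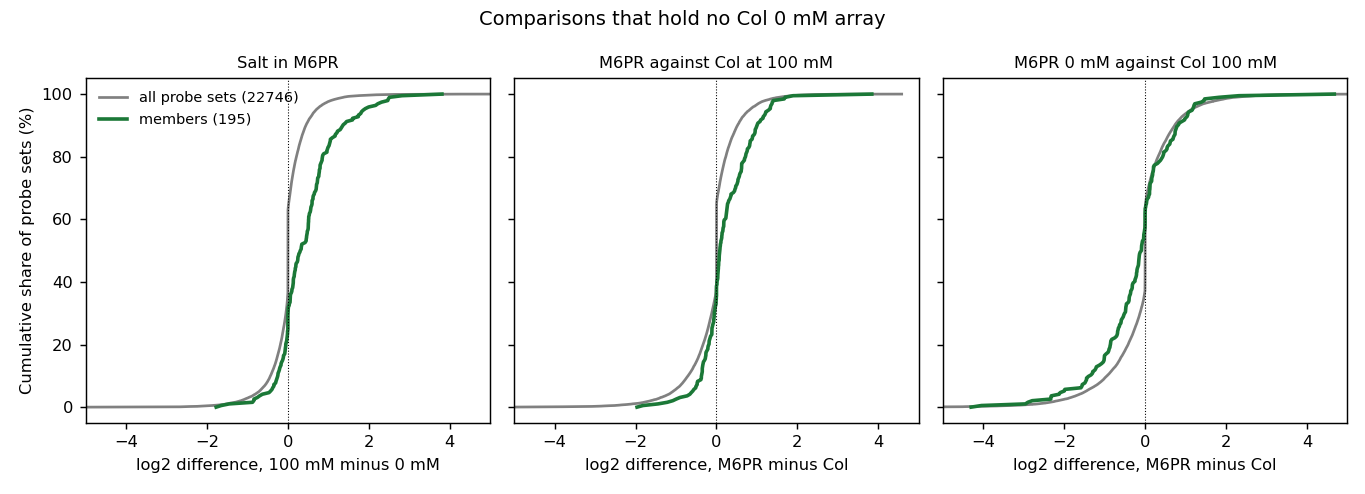
Cumulative share (percent, vertical axis) of the 195 members (green) and all 22746 probe sets (grey) by log2 difference (horizontal axis) in the 3 comparisons without Col 0 mM arrays. The member curve lies to the right for salt in M6PR, with a median of 0.31 against 0, while its medians in the other panels are 0.08 and -0.09.

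The second comparison set the lines side by side under salt (M6PR 100 mM minus Col 100 mM). None of the members was called (0 of 195), against 0.136% of all probe sets (31). With an unadjusted p under 0.05, 8 were higher and 7 lower (4.10% and 3.59%), against 6.15% and 6.81% of all. The M6PR arrays lay above both Col arrays for 33 members (16.9%), against 15.4% of all, and below for 20 (10.3%), against 19.1%. Among the 138 members above background these shares were 17.4% and 9.42%, against 22.9% and 27.9% of 13747 such probe sets. The median difference was 0.08. It was -0.16 without M6PR 100 mM replicate 1 and 0.39 without replicate 2. Over all probe sets the median was 0 in each of these settings.

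The 2 salted M6PR arrays stood on opposite sides of salted Col. Replicate 1 lay above both Col 100 mM arrays for 128 members (65.6%), against 26.8% of all, and below both for 22 (11.3%), against 31.1%. Replicate 2 lay above both for 37 (19.0%), against 24.4%, and below both for 94 (48.2%), against 25.8%. The members therefore gave no common order of the lines under salt.

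Single genes with the largest differences between the salted lines did not pass the threshold. AT5G41400 differed by -1.45 (SE 0.35, adjusted p = 0.269) and GH9C2 by -1.22 (SE 0.41, adjusted p = 0.365), both lower in M6PR. Upward, AT2G27420 differed by 1.70 (SE 0.96, adjusted p = 0.526), which rests on M6PR 100 mM replicate 1. EXPB1 was higher in both salted M6PR arrays than in both salted Col arrays, with a difference of 0.99 (SE 0.44, adjusted p = 0.440).

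The third comparison set unsalted M6PR against salted Col, groups that differ in line and in salt and that both lack the high level of unsalted Col. Of the members, 9 (4.62%) were called, against 4.79% of all probe sets. These were 3 higher in M6PR 0 mM, against 3.09% of all, and 6 lower, against 1.7%. The share of members called was near the background. The M6PR arrays lay above both Col arrays for 41 members (21.0%), against 22.4%, and below for 74 (37.9%), against 24.9%. Among the 138 members above background these shares were 21.7% and 40.6%, against 33.8% and 36.6% of 13747 such probe sets. The share below was thus nearer to that of all probe sets above background. The median difference was -0.09. The median of all probe sets was 0. After centring each array on its median, these medians were 0.12 and 0.21, and after quantile normalization both were 0, so a lower level of the members was not seen under every scaling.

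Of the 9 called members, 5 had a gene and 4 had none. GH9C2 was lower in unsalted M6PR than in salted Col, with a difference of -2.96 (SE 0.41, adjusted p = 0.0395). AT1G60590 was also lower, with a difference of -4.04 (SE 0.55, adjusted p = 0.0384). AT5G41400, with 8.58 and 8.38 in Col 0 mM, 6.65 and 6.45 in Col 100 mM, 3.96 and 3.56 in M6PR 0 mM, and 5.56 and 4.66 in M6PR 100 mM, had a difference of -2.79 (SE 0.35, adjusted p = 0.0330). The last 2 of these genes were at background in unsalted M6PR, so these sizes are not measured ones. Each of these calls was lost without any 1 of the 4 arrays compared, with adjusted p from 0.0708 to 0.173 for GH9C2, from 0.0635 to 0.172 for AT1G60590 and from 0.0560 to 0.118 for AT5G41400.

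AT4G22730 read 5.26 and 5.43 in Col 0 mM, 3.75 and 3.63 in Col 100 mM, 2.32 and 2.47 in M6PR 0 mM, and 3.10 and 3.35 in M6PR 100 mM. Its difference of -1.29 (SE 0.12, adjusted p = 0.0209) lay wholly below background, and it was lost without Col 100 mM replicate 1 or without either M6PR 0 mM array (adjusted p 0.0538 to 0.0902). AT5G52550 read 6.91 and 6.83 in Col 0 mM, 4.92 and 4.64 in Col 100 mM, 5.40 and 5.40 in M6PR 0 mM, and 5.05 and 5.06 in M6PR 100 mM. It was higher in unsalted M6PR than in salted Col by 0.62 (SE 0.10, adjusted p = 0.050), a call lost without either M6PR 0 mM array (adjusted p = 0.158 and 0.202) and with a trended robust prior (adjusted p = 0.0576). With only the compared groups fitted, none of these 5 calls was kept (adjusted p from 0.0577 to 0.198). With the replicate block, GH9C2, AT1G60590 and AT5G52550 were not called (adjusted p = 0.0726, 0.0797 and 0.0824).

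The order of the other groups differed between members. Among the 138 above background, M6PR 0 mM had the lowest mean for 76, Col 100 mM for 49 and M6PR 100 mM for 13. These shares were 55.1%, 35.5% and 9.42%, against 39.1%, 37.8% and 23.1% of 13713 probe sets above background. M6PR 100 mM had the highest mean for 64 (46.4%, against 19.9%), Col 100 mM for 44 (31.9%, against 43.3%) and M6PR 0 mM for 30 (21.7%, against 36.8%). The count of 64 rested on replicate 1. It was 18 (13.0%, against 18.2%) without that array, when Col 100 mM was highest for 72 (52.2%, against 41.9%). Without replicate 2 it was 107 (77.5%, against 26.0%). M6PR 0 mM was lowest for 65 (47.1%, against 42.9%) without replicate 1 and for 79 (57.25%, against 29.2%) without replicate 2. Without replicate 1 its share was thus near that of all probe sets. The pattern with unsalted M6PR lowest was seen in GH9C2, IAGLU, bHLH34, UGT71B1 and CHIL. The pattern with the lowest mean in salted Col was seen in APS4, QQS, GSTU23, CYP71B36 and AT3G44970. For QQS and AT3G44970 the 2 salted groups overlapped. For QQS, M6PR 100 mM replicate 2 (5.29) lay below the Col 100 mM mean (5.46), so its order rested on replicate 1.

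Other genes of the members' pathways were taken from 38 gene lists matched by symbol. These lists held 267 measured genes, of which 10 were members, and 9 lists held a member. Among all 1551 measured genes with a symbol, 1.23% were members. For the genes that are not members, the comparisons with Col 0 mM could be read with limma. Salt in Col called 5.24% of all probe sets, 2.25% higher and 2.99% lower, and M6PR against Col at 0 mM called 7.03%, 3.97% higher and 3.06% lower.

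Among 43 other UDP-glycosyltransferases, 2 rose with salt in Col and none fell. UGT76E12 rose by 4.5 (SE 0.23, adjusted p = 0.00620), from the lowest level to a mean of 6.65, and UGT73C7 by 1.32 (SE 0.17, adjusted p = 0.0334), below background. Without salt, 2 were lower in M6PR than in Col and none was higher. UGT76E11 differed by -2.29 (SE 0.19, adjusted p = 0.0116) and UGT78D1, a flavonol glycosyltransferase, by -2.58 (SE 0.31, adjusted p = 0.0220). Under salt, UGT76E12 was lower in M6PR than in Col, at background, with a difference of -4.24 (SE 0.23, adjusted p = 0.0229).

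In the bHLH list, of 5 other genes, BIM1, a factor of brassinosteroid signalling, fell with salt in Col by 0.97 (SE 0.07, adjusted p = 0.0132) and was lower in unsalted M6PR, with a difference of -1.02 (SE 0.07, adjusted p = 0.00921). bHLH121 was higher in unsalted M6PR than in unsalted Col by 1.71 (SE 0.18, adjusted p = 0.0169). In the sulfur list, SIR, sulfite reductase, which acts downstream of ATP sulfurylase, was 1 of 2 other genes and fell with salt in Col by 0.79 (SE 0.07, adjusted p = 0.0177). Of 12 other glutathione transferases, GSTU18 fell with salt in Col by 1.68 (SE 0.24, adjusted p = 0.0400).

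Of 21 other cytochromes P450, none was called for salt in Col, where 9 had an unadjusted p under 0.05, and CYP71B26 and CYP71B6 were lower in unsalted M6PR than in unsalted Col, with differences of -2.55 (SE 0.34, adjusted p = 0.0268) and -1.12 (SE 0.17, adjusted p = 0.0340). None of 10 other auxin genes, 14 other transporters of sugar, nitrate and phosphate, or 10 other phenylpropanoid genes was called by limma in either of these comparisons. For salt in Col, 2, 4 and 5 of them had an unadjusted p under 0.05, and for M6PR against Col at 0 mM 1, 2 and 1 had. The only other gene of light signalling, HAT2, was not called either, with an unadjusted p under 0.05 for salt in Col.

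Marker genes of the tissue were measured beside the members. The leaf genes RCA and PRK read 14.5 to 14.8 and 13.5 to 14.0 on all arrays. Of 3 root genes measured, EXPA7 and EXPA18 were at most 2.37 on every array. PYK10, a root beta-glucosidase, read 2.22 and 2.32 in Col 0 mM, 10.28 and 7.51 in Col 100 mM, 2.82 and 2.15 in M6PR 0 mM, and 2.83 and 6.27 in M6PR 100 mM. It was high on 3 of the 4 salted arrays and at background on M6PR 100 mM replicate 1, the salted array on which most members were nearest to unsalted Col.

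TRY, which encodes a regulator of leaf hair spacing in the epidermis, read 8.25 and 8.16 in Col 0 mM, 5.24 and 5.0 in Col 100 mM, 4.09 and 4.16 in M6PR 0 mM, and 7.26 and 4.32 in M6PR 100 mM. It was no member, since M6PR 100 mM replicate 1 lay within 1 log2 unit of the Col 0 mM arrays. FDH, an epidermal gene, read between 10.98 and 12.33, and SWEET11, a vascular sugar transporter, between 10.96 and 12.32. IRX15, the other vascular gene measured, read 2.16 on every array. MUTE, the only guard cell gene measured, was at most 2.30. The flower and seed genes AMS and OLEO3 were at most 2.91. The part of these markers in the members' values was not tested.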

How the data were processed

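Leaf RNA was measured on 8 Affymetrix arrays. The table deposited by the authors holds a log2 intensity for each probe set on each array. GCOS and RMA were used (versions not given), per the submitters' processing notes. The background model and which arrays were normalized together are not given in the sources used here. Groups were taken from the sample titles, and replicates were separate pots per the labels' protocols. After 64 array controls were left out of 22810 probe sets, 22746 were analysed. Names come from the array's annotation table (13513 probe sets with 1 gene, 503 with several, 8730 with none), of which 13436 matched RefSeq TAIR10.1.

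limma 3.58.1 in R 4.3.3 fitted a mean for each of the 4 groups (residual degrees of freedom 4, prior 0.409), two-sided, with Benjamini-Hochberg adjustment over all probe sets and a threshold of 0.05. The scripts were tested on simulated data. The members, gene lists and named-gene rule were chosen with earlier results of these data known. The rule took the 20 largest gaps, up to 4 members of each list, up to 8 called members and the 6 largest differences per direction of each tested comparison, and 3 probe sets on each side of the threshold. The other members with a symbol, the members led by 1 array and the background level of log2 4 were chosen after the values were seen. Lists were matched by symbol only. Replicate numbers were not used as pairs: deviations of same-numbered arrays correlated at r = 0.486 for salt in M6PR, -0.147 for the lines at 100 mM and -0.151 for M6PR 0 mM against Col 100 mM, across probe sets, and the labels do not tie a number to a shared batch. Alternatives were a filter on dim probe sets, quantile normalization, centring, a trended robust prior, the replicate block, only the compared groups, other gaps and leaving out arrays (for the order of the groups, added after the data were seen). No sequence was used here.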

Additional observations from a re-analysis of the deposited data

Results flagged for a closer look

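Salted M6PR lay above unsalted M6PR on both arrays for 58 members (29.7%), against 12.7% of all probe sets, and below for 10 (5.13%), against 15.7%. Salted Col lay below unsalted Col for every member, which the rule fixes, so the signs in the 2 lines are set side by side only as a description, and the difference between the lines was not tested. The M6PR side rested on replicate 1 of M6PR 100 mM, whose salt label is held in doubt and was not tested. Replicate 2 lay above both unsalted arrays for 59 members and below both for 64. The median difference of the members was 0 without replicate 1. The log2 difference of salted minus unsalted M6PR was 3.81 for AT1G60590, 2.51 for AT5G01790, 2.22 for IAGLU, 2.17 for AT3G22550, 1.91 for AT1G48100 and 1.86 for AT2G15020. The unsalted M6PR means of AT1G60590, IAGLU, AT1G48100 and AT2G15020 lay below background, so these are not measured sizes. None of the 6 passed the threshold of limma in M6PR.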

How the results depend on the processing

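No call among the named members changed sign. Calls for salt in M6PR (39 probe sets, 0 members) became 116 and 1 without the dimmest 25% of probe sets, 244 and 3 after centring on array medians, and 435 and 1 without M6PR 100 mM replicate 1 and Col 100 mM replicate 1. With only the compared groups fitted they were 0, with 1975 probe sets at an unadjusted p under 0.05. Leaving out single arrays gave 140 to 829 probe sets and 0 to 13 members. For the lines at 100 mM (31 and 0) these settings gave 70 probe sets without dim ones, 139 and 1 after centring, 587 and 2 without both arrays, 0 (1375 unadjusted) with only the compared groups, and 107 to 1212 probe sets and 1 to 11 members without single arrays. For M6PR 0 mM against Col 100 mM (1089 and 9) they gave 2733 and 22 without dim probe sets, 3103 after centring, 88 and 3 with only the compared groups, and 339 to 2256 and 1 to 9 without single arrays. Centring changed the split of calls to 46 higher and 198 lower for salt in M6PR (2 and 37 before), to 77 and 62 for the lines at 100 mM (8 and 23 before) and to 2129 and 974 for the third comparison (703 and 386 before). The cause of these changes was not tested. With the replicate number as a block, the calls were 13, 3 and 283 probe sets in the 3 comparisons, and 4 members in the third. Crossing the pairing, chosen after seeing the data, gave 0 calls for the lines at 100 mM (2548 unadjusted) and 0 probe sets and 0 members for M6PR 0 mM against Col 100 mM (4256 unadjusted). The number of members, 195, was 690 with a gap of 0.5 and 36 with a gap of 2. Quantile normalization gave 188 probe sets, 175 of them members, and centring gave 191, 173 of them members. The number was 474 without both arrays and 198 to 422 without single arrays. It was highest when M6PR 100 mM replicate 1 was dropped, and dropping Col 0 mM replicate 2 gave 297. Dropping an array cannot narrow the gap, so all 195 members are then kept by construction. Signal near background limits the sizes of low members, and 2 arrays a group limit every test. The search for promoter motifs was not run.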
